A study of Mus musculus with 6 samples.

Results

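The ADAM and ADAMTS metalloproteases were described here in mouse gingiva, the mucosa that surrounds the teeth. Members were all genes of the deposited expression table whose symbol is Adam or Adamts followed by a number and at most 1 letter. The table of 21948 genes held 33 such genes, 15 ADAM and 18 ADAMTS. Total RNA of gingiva from 12-week-old C57BL/6 mice was sequenced from the groups Plg WT and Plg KO, with 3 libraries each, and the series names the former as littermates. The knockout lacks Plg, the gene of plasminogen, the precursor of the fibrin-dissolving protease plasmin. The labels name no other allele or treatment, and they do not say that each library came from its own animal, so the p-values cover the spread of these libraries only, which can be technical.

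ADAM proteins sit in the cell membrane and carry a metalloprotease domain beside a disintegrin domain. Many of them cut the outer parts off other membrane proteins, a process called shedding that releases growth factors and cytokines such as TNF. ADAMTS proteins are secreted, carry thrombospondin repeats, and cut matrix molecules such as proteoglycans, procollagens and von Willebrand factor. TIMP proteins inhibit members of both families. In barrier tissue these enzymes are known for roles in leukocyte movement, growth factor release in epithelium and turnover of connective tissue.

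The libraries held 26183389 to 36429150 gene counts each. A count of 0 allows up to 3 counts, or 0.0824 to 0.115 CPM (counts scaled to library size) depending on the library, for counting error only. Plg, a gene of liver, was counted 2 times in each group, too few to check the genotypes. The Y-linked gene Ddx3y exceeded Xist in 1 library of each group, Plg WT 3 and Plg KO 1. Markers of stratified epithelium, the lining of gingiva, summed to 45340 to 57152 CPM per library, and none of the 12 was at 0.

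The active site that the enzymes share is shown as the codons of its zinc-binding motif, because cutting depends on it. The search asked, in frame, for 3 histidine codons, 1 glutamate codon and 1 aspartate codon at fixed places over 12 codons of the coding sequence, in 1 GENCODE M21 transcript per gene on GRCm38. It found them in 27 of the 33 members and in 41 of 21584 genes searched in all (0.190%). An earlier pattern required glycine as the eighth codon and no aspartate, and it was changed after its result was seen. These counts, and those below, therefore describe the members and are no test. All 18 ADAMTS genes had the motif and 9 of the 15 ADAM genes. The 6 without a match were Adam1a, Adam4, Adam11, Adam22, Adam23 and Adam32, and no match says only that these codons are not in the transcript searched. The sequences below belong to the members with the smallest p or the highest level, and to Adamts5 as the aggrecanase whose eighth codon differs. Capitals mark the 5 fixed codons and the eighth codon, each is written 5′ to 3′ in the direction of the gene, and all lie in coding exons, some across an intron.
Adam8, chr7:139987890-139987925, minus strand: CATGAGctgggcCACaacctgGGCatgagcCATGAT
Adam12, chr7:133961155-133961190, minus strand: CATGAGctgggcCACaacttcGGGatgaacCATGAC
Adam15, chr3:89344777-89344812, minus strand: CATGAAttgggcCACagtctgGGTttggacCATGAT
Adam17, chr12:21336729-21336764, minus strand: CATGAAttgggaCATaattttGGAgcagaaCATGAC
Adam10, chr9:70754296-70761588 across an intron, plus strand, exons 9 and 10: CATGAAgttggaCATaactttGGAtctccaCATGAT
Adamts4, chr1:171253210-171253918 across an intron, plus strand, exons 3 and 4: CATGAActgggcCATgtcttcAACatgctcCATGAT
Adamts1, chr16:85799188-85799545 across an intron, minus strand, exons 3 and 4: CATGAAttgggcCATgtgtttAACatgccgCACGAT
Adamts10, chr17:33538157-33538282 across an intron, plus strand, exons 9 and 10: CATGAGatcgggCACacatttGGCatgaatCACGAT
Adamts2, chr11:50775403-50776137 across an intron, plus strand, exons 7 and 8: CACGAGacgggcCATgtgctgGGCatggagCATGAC
Adamts5, chr16:85878012-85887826 across an intron, minus strand, exons 2 and 3: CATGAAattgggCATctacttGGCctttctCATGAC
The eighth codon was glycine in all 9 ADAM genes with the motif and in 12 ADAMTS genes. It was asparagine in 5 proteoglycan-cutting ADAMTS genes, Adamts1, Adamts4, Adamts9, Adamts15 and Adamts20, and a different codon in Adamts8. Adamts5, which also cuts proteoglycans, had glycine. The motif lay within exon 11 of the transcript in 8 ADAM genes and was split over 2 exons in Adam10 and in all 18 ADAMTS genes.

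No member passed the test over all genes, but the members with the smallest p were, in gingiva without Plg, higher for the proteases Adamts4, Adam12 and Adam8 and lower for Adam22, which lacks the active site. Of 33 members, 29 had enough counts to be tested with edgeR's quasi-likelihood method, and 0 were called at a Benjamini-Hochberg adjusted p under 0.05, against 0.237% of all 17757 tested genes (0.191% higher and 0.0451% lower in Plg KO). The 4 untested members, Adam32, Adamts3, Adamts12 and Adamts19, had 12 to 47 counts over all libraries. With no adjustment, 6 members had p under 0.05 against 9.25% of all tested genes, 4 of them higher (against 4.97%) and 2 lower (against 4.27%). At an adjusted p under 0.10 there were 3 members, against 0.681% of all genes, and 3 differed by at least 2-fold, against 4.03%. DESeq2 called 4 members, Adamts4, Adam12 and Adam8 higher and Adam22 lower, where it called 2.26% of all genes (1.54% higher and 0.721% lower). Limma-voom called 0, where it called 0.231% of all genes (0.180% higher and 0.0507% lower). The 3 libraries of one group lay wholly above the 3 of the other for 8 members, against 14.7% of all tested genes. Of the 8, 5 were higher in Plg KO (against 7.51%) and 3 lower (against 7.18%). In tissue RNA, fewer cells of a type and less RNA per cell cannot be told apart for any of these values.

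Both families had a median close to 0, and the typical ADAM gene lay farther from 0 than the typical ADAMTS gene. The 14 tested ADAM genes had a median log2 difference (Plg KO minus Plg WT) of 0.08, with 8 positive and 6 negative values between -0.79 and 1.43. The 15 tested ADAMTS genes had a median of 0.12, with 9 positive and 6 negative values between -0.59 and 2.0. The median over all tested genes was -0.00, with 49.2% positive. Regardless of sign, the median size of the log2 difference was 0.52 for ADAM, 0.24 for ADAMTS and 0.16 for all tested genes. Sizes grow with low counts. The median CPM over all members of a family ran over the libraries from 3.03 to 4.81 for ADAM and from 0.817 to 1.34 for ADAMTS. A difference between the families was not tested.

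**Figure D1:**
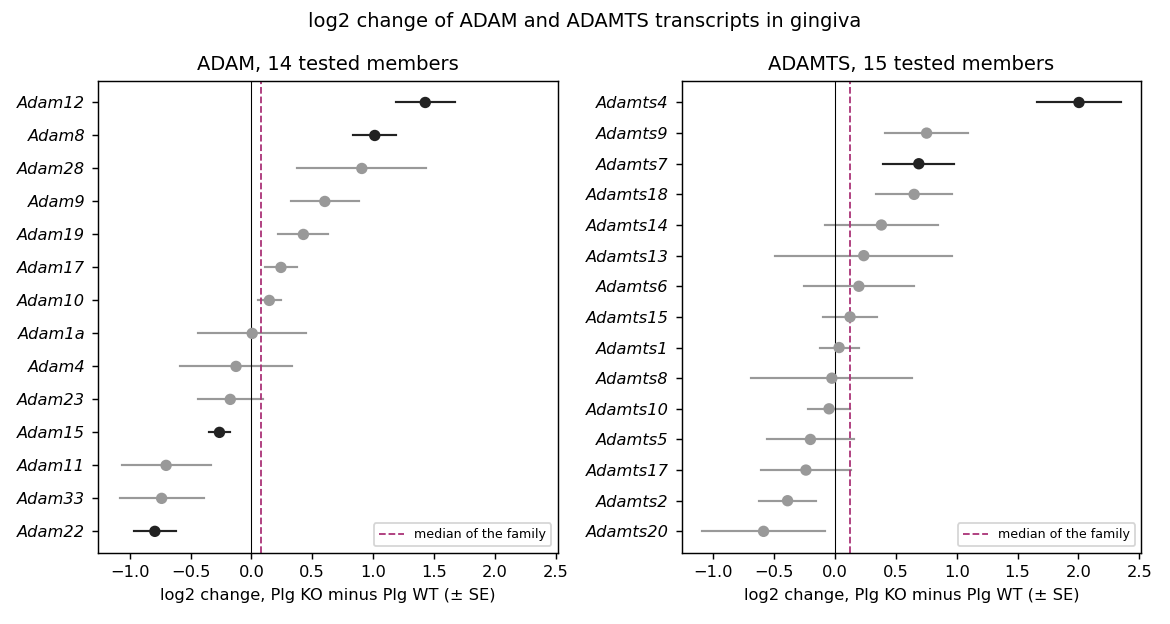
Log2 change from Plg WT to Plg KO (x axis) of the 14 ADAM and 15 ADAMTS genes tested, with the standard error as a bar; black points have an unadjusted p under 0.05, and the dashed line is the median of the family. Adamts4, Adam12 and Adam8 lie farthest to the right, at 2.0, 1.43 and 1.01, and Adam22 lies lowest of all, at -0.79.

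Grouped by whether the search found the motif, the 9 ADAM genes with it had a median log2 difference of 0.43, with 7 positive and 2 negative values. The 5 tested ADAM genes with no match had a median of -0.17, with 1 positive and 4 negative values. The positive value, 0.01 ± 0.44, was that of Adam1a. Nearly all of its exon length is shared with other genes, so neither this value nor its place in the group can be relied on. Among ADAMTS genes the median was 0.20 for the 9 tested genes with glycine as the eighth codon and 0.12 for the 5 with asparagine. The 9 ADAM genes with the motif are the same genes that are described below as membrane sheddases. Those with no match are the ADAM genes of nerve and of testis and sperm, so motif and role cannot be told apart here. These medians are descriptions of small groups and carry no test.

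Most of the family's RNA came from a few ADAM genes of broad expression. Summed over members, ADAM genes took 486, 523 and 487 CPM in Plg WT 1, 2 and 3 against 558, 555 and 554 CPM in Plg KO 1, 2 and 3. The sums did not overlap between the groups, as held for 14.7% of all tested genes taken singly. Adam10, the largest part, had overlapping groups, while Adam8 was higher and Adam15 lower in Plg KO. The sums also hold Adam28 and Adam9, whose differences depended on a single library. ADAMTS genes took 47.0 to 60.9 CPM in Plg WT against 51.3 to 64.6 CPM in Plg KO, and these ranges overlap. Adam10 alone gave 55.2% of the ADAM counts, and Adam10, Adam15 and Adam17 together gave 83.5%. Among ADAMTS genes, Adamts2 gave 26.7% and Adamts10 26.6% of the counts.

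Compared per length, as CPM per kb of merged exon, Adam10 stood first with 59.2 ± 4.70 (SD over 6 libraries), followed by Adam15 with 16.3 ± 1.75. Their ranges over the libraries did not meet each other or that of the next gene. Adam8 (7.65 ± 3.18) and Adam17 (6.85 ± 0.970) overlapped, and Adam9 followed with 4.05 ± 1.31. The highest ADAMTS genes came next and overlapped, Adamts10 with 1.77 ± 0.262, Adamts1 with 1.72 ± 0.198 and Adamts2 with 1.58 ± 0.416 CPM per kb. Adam28, with 1.64 ± 0.895 CPM per kb, stood between Adamts1 and Adamts2. From there down to the lowest member, neighbours in the order overlapped. Adam1a shares 99.0% of its merged exon length with other genes of the annotation, and the libraries carry no strand, so its level cannot be assigned to it.

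**Figure D2:**
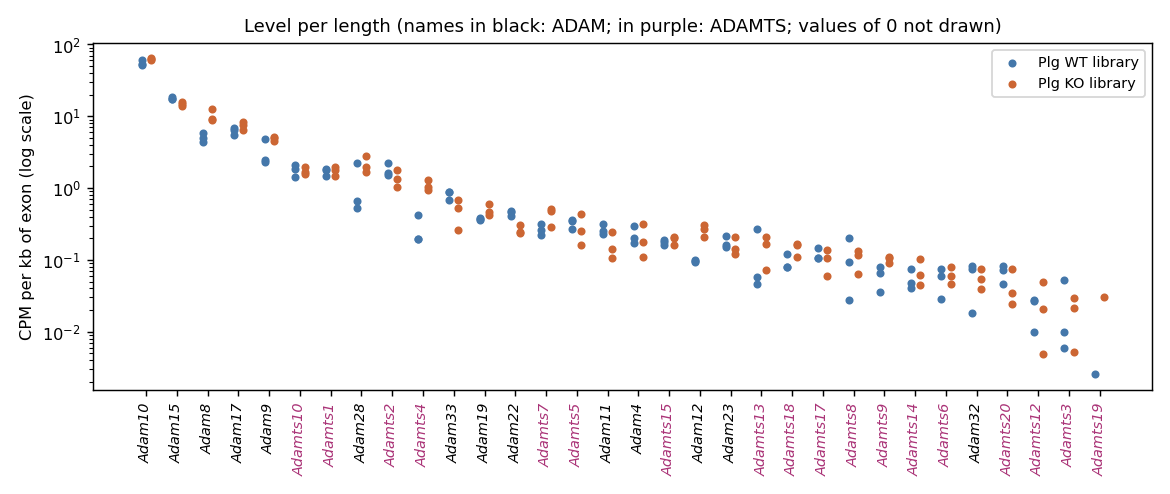
Level of each member per length (y axis, CPM per kb of exon, log scale) in each library, ordered by the mean; Adam1a is left out because its exons overlap other genes. The top 5 are ADAM genes, from Adam10 at a mean of 59.2 down to Adam9 at 4.05, and the highest ADAMTS gene, Adamts10, has 1.77.

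The membrane sheddases held the highest ADAM members and 2 of the 3 with the smallest p. Of the 9 sheddases, 0 were called by edgeR (with no adjustment, 2 higher and 1 lower at p under 0.05), and DESeq2 called Adam8 and Adam12. Adam8 is a protease of leukocytes and activated epithelium that sheds adhesion molecules (ENSMUSG00000025473, GRCm38 chromosome 7, 139978932 to 139992562). It had 20.1, 23.3 and 27.0 CPM in Plg WT 1, 2 and 3 against 42.7, 58.9 and 40.8 CPM in Plg KO 1, 2 and 3. Every Plg KO library lay above every Plg WT library. The means were 23.5 ± 3.43 and 47.5 ± 9.97 CPM (SD, n = 3 each), a log2 difference of 1.01 ± 0.17 (SE) with an adjusted p of 0.0928 by edgeR and 0.000121 in DESeq2.

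Markers of neutrophils moved with Adam8. Their sum over 12 genes was 43.4 to 83.7 CPM in Plg WT against 183 to 548 CPM in Plg KO, with all 11 tested markers positive and none of the 12 at 0. Of these edgeR called 1 and DESeq2 called 9. Plg KO 2, the library with the most Adam8, also had the largest neutrophil sum. The macrophage sum was 79.0 to 97.9 CPM in Plg WT against 98.3 to 108.6 CPM in Plg KO, but its 10 markers did not move together. Of them 6 were positive and 4 negative, with a median log2 difference of 0.01. EdgeR called 0 (with no adjustment, 1 higher and 1 lower at p under 0.05) and DESeq2 called 1 higher. The part of these cells in the Adam8 values was not tested.

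Adam12 encodes meltrin alpha, a sheddase of mesenchymal cells and regenerating muscle that can release the growth factor HB-EGF (ENSMUSG00000054555, chromosome 7, 133883199 to 134232146). It had 1.01, 0.9997 and 1.06 CPM in Plg WT 1, 2 and 3 against 3.21, 2.21 and 2.83 CPM in Plg KO 1, 2 and 3. The Plg WT libraries were close together and all Plg KO libraries lay above them. The level is low and rests on 98 counts in the Plg WT libraries and 277 in the Plg KO libraries. The log2 difference was 1.43 ± 0.24 (2.69-fold), with an adjusted p of 0.0892 by edgeR and 0.000984 in DESeq2. Fibroblast markers, which could accompany a mesenchymal gene, summed to 2301 to 3800 CPM in Plg WT against 1462 to 2656 CPM in Plg KO, with 9 of 10 negative, 0 called by edgeR or DESeq2, 5 lower at p under 0.05 before adjustment and none at 0. Skeletal muscle markers summed to 11261 to 23233 CPM in Plg WT against 4757 to 22969 CPM in Plg KO, with 4 of 8 positive and none at 0. The part of either in the Adam12 values was not tested.

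Adam10 and Adam17 are the main sheddases of most cells. Adam10 cuts Notch receptors and E-cadherin, and it had 258, 304 and 267 CPM in Plg WT 1, 2 and 3 against 308, 295 and 314 CPM in Plg KO 1, 2 and 3. Plg WT 2 lay within the Plg KO range, and the log2 difference was 0.15 ± 0.10 (adjusted p = 0.716 by edgeR). Adam17 releases TNF and ligands of the EGF receptor, and it had 39.7, 46.7 and 48.4 CPM in Plg WT against 59.3, 54.6 and 45.6 CPM in Plg KO. Its groups overlapped in Plg KO 3, and the log2 difference was 0.24 ± 0.13 (adjusted p = 0.635).

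Adam15, known as metargidin, is an integrin-binding sheddase of epithelium and endothelium. It had 107, 113 and 109 CPM in Plg WT 1, 2 and 3 against 96.8, 90.7 and 86.0 CPM in Plg KO 1, 2 and 3. All Plg KO libraries lay below all Plg WT libraries, by a small margin. The log2 difference was -0.26 ± 0.08, with an unadjusted p of 0.0154 and an adjusted p of 0.365 by edgeR, and DESeq2 gave an adjusted p of 0.321. The gene shares 20.6% of its exon length with an antisense transcript, and without strand the reads there cannot be told apart.

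**Figure D3:**
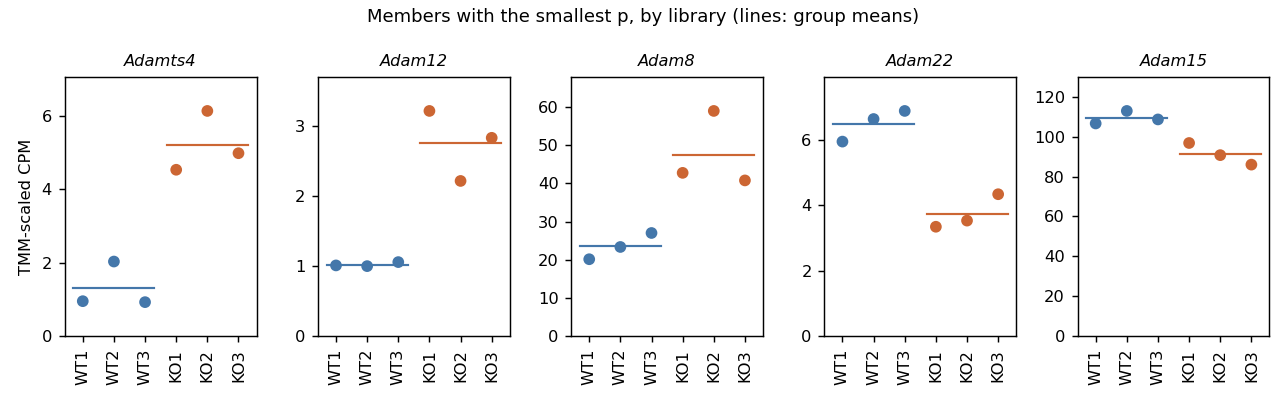
TMM-scaled CPM (y axis, from 0) in each of the 6 libraries for the 5 members with the smallest p, with a line at each group mean. In each panel the 3 Plg KO libraries lie on one side of the 3 Plg WT libraries, above for Adamts4, Adam12 and Adam8 and below for Adam22 and Adam15.

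Adam28 and Adam9 depended on a single library and were singled out after their values were seen. Adam28, a sheddase of lymphocytes and epithelia, had 20.6 CPM in Plg WT 1, 6.00 in Plg WT 2 and 4.84 in Plg WT 3, with 15.4, 18.2 and 25.6 CPM in Plg KO 1, 2 and 3. Adam9, a widely expressed sheddase, had 20.0 CPM in Plg WT 1, 10.3 in Plg WT 2 and 9.35 in Plg WT 3, with 18.6, 21.1 and 20.7 CPM in Plg KO. In both genes Plg WT 1 lay at the Plg KO level and the other Plg WT libraries lay below it. The log2 differences were 0.91 ± 0.53 for Adam28 and 0.60 ± 0.28 for Adam9 (adjusted p = 0.675 and 0.588 by edgeR). Without Plg WT 1 they were 1.87 ± 0.26 and 1.04 ± 0.14, and both passed (adjusted p = 0.0369 and 0.0341 by edgeR), with 1.22% of all genes called in that fit. Both genes were singled out for the place of Plg WT 1, so the fit without it is no independent support for a difference.

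Gland transcripts followed the same split of libraries. Markers of salivary gland summed to 12094.5 CPM in Plg WT 1, 3548.5 and 1970.5 in Plg WT 2 and 3, with 9159 to 11477 CPM in Plg KO. Of its 11 genes, 1 (Prol1) was at 0 in every library. Of the 10 tested, 0 were called by edgeR, 0 by DESeq2 and 0 at an unadjusted p under 0.05, and all 10 were positive. The T and B cell markers summed to 92.1 CPM in Plg WT 1, 51.6 in Plg WT 2 and 37.0 in Plg WT 3, while Plg KO had 23.2 to 36.9 CPM. Of the 9 tested, 8 were negative and 1 positive, edgeR called 0 and DESeq2 called 4 lower. The part of gland tissue or of lymphocytes in the Adam28 and Adam9 values was not tested.

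**Figure D4:**
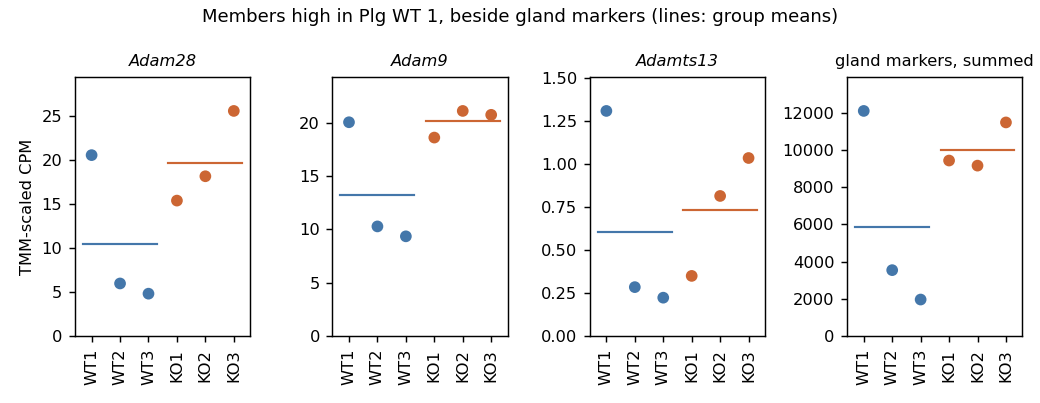
TMM-scaled CPM (y axis, from 0) of Adam28, Adam9 and Adamts13 by library, beside the summed CPM of 11 salivary gland markers, with a line at each group mean. Plg WT 1 stands above Plg WT 2 and 3 in every panel, at 20.6 against 6.00 and 4.84 CPM for Adam28 and at 12094.5 against 3548.5 and 1970.5 CPM for the gland markers.

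The remaining sheddases, Adam19 and Adam33, also singled out after their values were seen, had groups that did not overlap but missed an unadjusted p of 0.05. Adam19, or meltrin beta, had 2.63 ± 0.0868 CPM in Plg WT against 3.54 ± 0.662 CPM in Plg KO (log2 difference 0.43 ± 0.21). Adam33, a gene of mesenchymal cells, had 4.42 ± 0.615 and 2.66 ± 1.16 CPM (log2 difference -0.74 ± 0.35). Its Plg KO values ran from 1.40 CPM in Plg KO 1 to 3.70 CPM in Plg KO 3, just under the lowest Plg WT value of 3.71 CPM.

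The 3 ADAM proteins of nerve, which have no active protease and serve as adhesion proteins or receptors, all had negative log2 differences. Of them edgeR called 0 (1 lower at an unadjusted p under 0.05) and DESeq2 called Adam22. Adam22, a receptor for LGI proteins (ENSMUSG00000040537, chromosome 5, 8072352 to 8368160), had 5.95, 6.64 and 6.89 CPM in Plg WT 1, 2 and 3 against 3.35, 3.53 and 4.34 CPM in Plg KO 1, 2 and 3. No Plg KO library reached the Plg WT range. The log2 difference was -0.79 ± 0.17 (1.73-fold lower), with an adjusted p of 0.178 by edgeR and 0.0142 in DESeq2.

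Adam11 and Adam23 had log2 differences of -0.70 ± 0.37 and -0.17 ± 0.27, and their groups overlapped. Markers of Schwann cells and nerve summed to 285 to 462 CPM in Plg WT against 242 to 366 CPM in Plg KO, with all 7 tested markers negative, 0 called by edgeR or DESeq2 and 1 with an unadjusted p under 0.05. None of the 9 was at 0. Their part in the Adam22 values was not tested.

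ADAM genes best known from testis and sperm had low counts. Adam1a, Adam4 and Adam32 had 33 to 234 counts over all 6 libraries, and the 2 tested had log2 differences of 0.01 ± 0.44 and -0.13 ± 0.46, whose sign changed when single libraries were left out. A further 19 genes of the naming pattern, 18 ADAM and 1 ADAMTS (Adamts16), were in the count table but not in the deposited expression table. None had more than 5 counts in a library, and 6 had none at all, so their levels could not be compared at this depth. Sperm and testis markers summed to 1.40 to 2.79 CPM per library, with Prm2 and Tnp1 at 0.

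Among the ADAMTS genes, the proteoglycan-cutting group held the member with the largest difference of all. Of 7 proteoglycanases, 0 were called by edgeR (1 higher at an unadjusted p under 0.05) and DESeq2 called Adamts4. Adamts4 is an aggrecanase that cuts aggrecan and versican (ENSMUSG00000006403, chromosome 1, 171250421 to 171260637). It had 0.955, 2.04 and 0.929 CPM in Plg WT 1, 2 and 3 against 4.53, 6.14 and 4.99 CPM in Plg KO 1, 2 and 3. The groups were far apart, with the highest Plg WT library below the lowest Plg KO library. The means were 1.31 ± 0.631 and 5.22 ± 0.826 CPM, from 121 and 504 counts, a log2 difference of 2.0 ± 0.34 (4.01-fold). The adjusted p was 0.0892 by edgeR, 0.0810 in limma-voom and 7.71e-06 in DESeq2.

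Adamts1 and Adamts5, the other well-known aggrecanases, overlapped between the groups. Adamts1, also known to restrain vessel growth, had 9.66, 9.39 and 7.91 CPM in Plg WT 1, 2 and 3 against 7.77, 10.4 and 9.41 CPM in Plg KO. The groups covered the same range, and the log2 difference was 0.03 ± 0.16 (adjusted p = 0.976 by edgeR). Adamts5, the main aggrecanase of cartilage, had 2.87, 3.71 and 3.94 CPM in Plg WT against 1.75, 2.72 and 4.65 CPM in Plg KO. Its Plg KO libraries lay on either side of the Plg WT range, and the log2 difference was -0.20 ± 0.36 (adjusted p = 0.921), positive (0.077) without Plg KO 1. These are each gene's own values, and the difference between Adamts4 and the other aggrecanases was not tested.

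Adamts9, which cuts versican, had 0.910 ± 0.340 CPM in Plg WT against 1.54 ± 0.161 CPM in Plg KO, with groups that did not overlap and a log2 difference of 0.75 ± 0.34 (unadjusted p = 0.0604). Adamts8, Adamts15 and Adamts20 had log2 differences of -0.03, 0.12 and -0.59 and groups that overlapped. The value of Adamts8 depended on single libraries, with 0.74 without Plg WT 2, 0.23 without Plg KO 1 and -0.48 without Plg WT 3. Adamts9 and Adamts8 share 12.0% and 10.6% of their exon length with genes on the other strand, where reads cannot be told apart. Adamts1 and Adamts5 lie 53.1 kb apart on chromosome 16, and Adamts8 and Adamts15 20.1 kb apart on chromosome 9.

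The procollagen N-proteinases trim the amino-terminal propeptide off fibrillar procollagens. Adamts2, the main one in skin, had 14.1, 20.99 and 15.2 CPM in Plg WT 1, 2 and 3 against 12.4, 9.52 and 16.4 CPM in Plg KO 1, 2 and 3. Plg KO 3 lay within the Plg WT range, and the log2 difference was -0.39 ± 0.23 (adjusted p = 0.685 by edgeR), or -0.20 without Plg WT 2 and -0.61 without Plg KO 3. Adamts14 had a log2 difference of 0.38 ± 0.47, and Adamts3 had 21 counts over all libraries and was not tested.

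Of the pair known to cut cartilage oligomeric matrix protein, Adamts7 had 1.64, 1.999 and 1.38 CPM in Plg WT 1, 2 and 3 against 2.97, 1.83 and 3.25 CPM in Plg KO 1, 2 and 3. Plg KO 2 lay within the Plg WT range. The log2 difference was 0.69 ± 0.29, with an unadjusted p of 0.0482 and an adjusted p of 0.535 by edgeR. Adamts12 had 47 counts in all and was not tested.

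Adamts13 cuts von Willebrand factor and is made mainly in liver. It had 1.31 CPM in Plg WT 1, 0.286 in Plg WT 2 and 0.224 in Plg WT 3, with 0.351, 0.816 and 1.04 CPM in Plg KO 1, 2 and 3. Its level was low, with 63 counts in Plg WT, of which Plg WT 1 gave 48, and 71 in Plg KO. The log2 difference was 0.24 ± 0.73 (adjusted p = 0.958 by edgeR), and it was negative without Plg WT 2 (-0.09), Plg WT 3 (-0.15) or Plg KO 3 (-0.11), while without Plg WT 1 it was 1.51. Vwf, the gene of its substrate, had 16.2 ± 4.06 CPM in Plg WT against 16.4 ± 1.87 CPM in Plg KO.

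Among the ADAMTS genes tied to fibrillin or without an agreed substrate, 0 of 4 tested genes were called by edgeR or DESeq2 and none had an unadjusted p under 0.05. Adamts10, a fibrillin-binding member, was the ADAMTS gene with the highest level per length. It had 17.5, 15.4 and 11.6 CPM in Plg WT 1, 2 and 3 against 13.8, 13.0 and 16.1 CPM in Plg KO. The Plg KO libraries lay inside the Plg WT range, and the log2 difference was -0.05 ± 0.17 (adjusted p = 0.965 by edgeR), positive at 0.087 without Plg WT 1 and at 0.02 without Plg KO 2. Adamts18 had a log2 difference of 0.65 ± 0.31 and overlapping groups. Adamts6 and Adamts17 had 0.20 and -0.24, also with overlapping groups, and each changed sign when a single library was left out (Adamts6 to -0.10 without Plg WT 3 and -0.04 without Plg KO 1, Adamts17 to 0.0069 without Plg KO 2).

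Genes that regulate, inhibit or feed these proteases were taken from 6 lists of 87 genes, of which 82 were tested. Of the 82, edgeR called 0, against 0.237% of all tested genes. Before adjustment, 7 were higher (against 4.97%) and 9 lower (against 4.27%) with p under 0.05. DESeq2 called 4 higher (against 1.54% of all genes) and 2 lower (against 0.721%), and the 4 higher were ligands that the sheddases release. The median log2 difference was -0.06, against -0.00 for all tested genes.

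Membrane substrates of the ADAM sheddases had 0 of 30 tested genes called by edgeR (with no adjustment, 5 higher and 3 lower at p under 0.05) and a median log2 difference of 0.02. Areg, the EGF receptor ligand amphiregulin, had 3.74, 3.25 and 2.02 CPM in Plg WT 1, 2 and 3 against 7.15, 9.67 and 8.35 CPM in Plg KO 1, 2 and 3. Tgfa, another EGF receptor ligand, had 17.2, 14.5 and 13.5 CPM in Plg WT against 25.1, 28.9 and 23.9 CPM in Plg KO. In both genes every Plg KO library lay above every Plg WT library. The log2 differences were 1.48 ± 0.25 for Areg and 0.78 ± 0.13 for Tgfa (adjusted p = 0.0918 for each by edgeR, 2.62e-05 and 0.000440 in DESeq2).

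Hbegf, which encodes HB-EGF, and Tnf were added after their values were seen, as the other pair that DESeq2 called higher. Hbegf had 29.99 ± 5.62 CPM in Plg WT against 55.9 ± 15.7 CPM in Plg KO, a log2 difference of 0.90 ± 0.22 (adjusted p = 0.228 by edgeR and 0.0169 in DESeq2). Tnf had 1.51 ± 0.690 and 3.95 ± 1.26 CPM, a log2 difference of 1.37 ± 0.39 (adjusted p = 0.289 and 0.0372). The Plg KO libraries lay above the Plg WT libraries in each. Fcer2a, the B cell receptor CD23, was lower, at 2.12 ± 1.38 and 0.390 ± 0.0577 CPM (adjusted p = 0.194 in edgeR and 0.00329 in DESeq2), beside the T and B cell markers given above.

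**Figure D5:**
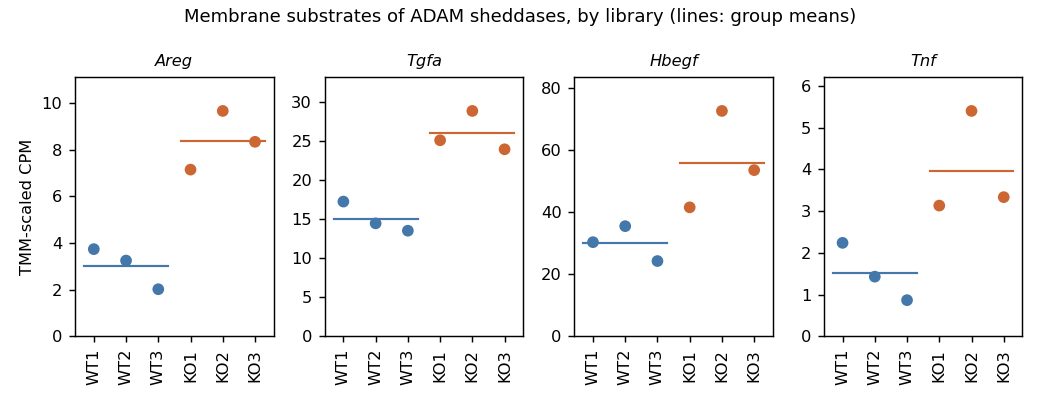
TMM-scaled CPM (y axis, from 0) by library for 4 membrane proteins that ADAM sheddases release, with a line at each group mean. In each panel the 3 Plg KO libraries lie above the 3 Plg WT libraries, with group means of 3.002 and 8.39 CPM for Areg and 15.1 and 25.97 CPM for Tgfa. The 4 genes were drawn because DESeq2 called them higher, so they do not stand for the whole list. Of its 30 tested genes, 5 had Plg KO wholly above Plg WT (against 7.51% of all tested genes) and 3 wholly below (against 7.18%).

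Of 12 tested regulators of the sheddases, such as the iRhom proteins, the tetraspanins that guide Adam10 and the proprotein convertases that activate the enzymes, edgeR and DESeq2 called 0 and none had an unadjusted p under 0.05. The median log2 difference was 0.08 and the smallest p belonged to Pcsk6 (-0.35 ± 0.19), Tspan14 (0.16 ± 0.09) and Tspan5 (-0.21 ± 0.14). Of 5 tested inhibitors edgeR and DESeq2 called 0, and 1 was lower at an unadjusted p under 0.05. This was Timp3, the main inhibitor of ADAM and ADAMTS enzymes, with 15.2, 15.5 and 9.23 CPM in Plg WT 1, 2 and 3 against 6.91, 6.18 and 9.80 CPM in Plg KO 1, 2 and 3. Plg WT 3 lay just under Plg KO 3, and the log2 difference was -0.80 ± 0.26 (adjusted p = 0.365 by edgeR). Timp2 and Reck had log2 differences of -0.34 ± 0.18 and -0.38 ± 0.48.

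Matrix targets of the ADAMTS enzymes had 9 negative and 6 positive log2 differences, between -1.33 and 1.27. Of these 15 proteoglycans and other matrix substrates edgeR called 0. With no adjustment, 1 was higher (against 4.97% of all tested genes) and 4 lower (against 4.27%) at p under 0.05. DESeq2 called Fmod lower, and the median log2 difference was -0.36. Fmod, the collagen-binding proteoglycan fibromodulin, had 44.9, 66.9 and 42.1 CPM in Plg WT 1, 2 and 3 against 30.3, 15.6 and 20.4 CPM in Plg KO 1, 2 and 3. All Plg KO libraries lay below the Plg WT libraries, and the log2 difference was -1.21 ± 0.27 (adjusted p = 0.189 by edgeR and 0.00177 in DESeq2). Fibronectin (Fn1) and biglycan (Bgn) had log2 differences of -0.59 ± 0.17 and -0.48 ± 0.18. Aggrecan and versican themselves (Acan and Vcan) had 1.002 ± 0.772 and 4.27 ± 0.807 CPM in Plg WT against 0.377 ± 0.377 and 3.64 ± 1.25 CPM in Plg KO, with overlapping groups.

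All 6 procollagen genes had negative log2 differences with a median of -0.40, 0 called by edgeR or DESeq2 and 1 at an unadjusted p under 0.05, Col3a1 (-0.46 ± 0.19). Col5a1 and Col5a2 had -0.41 ± 0.24 and -0.27 ± 0.18. Of 15 ADAMTS-like proteins and partners edgeR and DESeq2 called 0, and 1 was higher at an unadjusted p under 0.05, Pofut2, which adds fucose to thrombospondin repeats (0.37 ± 0.13). Lrp1, the receptor that clears several ADAMTS enzymes, and Adamtsl3 had log2 differences of -0.23 ± 0.10 and -0.31 ± 0.16. The procollagen and matrix lists share 3 and 2 genes with the fibroblast markers, whose sums were given with Adam12, and the part of fibroblast content in these values was not tested.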

How the data were processed

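The authors deposited raw counts per gene (48709 genes and 22 entries that name no gene, at most 3.55e-05% of a library and left out) and CPM after TMM scaling for 21948 genes. That table keeps every gene counted more than 5 times in some library, with 0 exceptions. Multiplied by 1 constant per column, 100% of the CPM values deposited gave whole reads (tolerance 0.01), equal to the raw counts. Per the labels' protocols, Nextera XT libraries, which carry no strand, were sequenced as 37 bp pairs. Tools named, per the submitters' processing notes, were limma, edgeR, DESeq2 and STAR 2.5.2a, and builds were mm10 and GRCm38.p3. How reads were assigned to genes is not given here.

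Genotypes were compared with edgeR 4.0.16, run in R 4.3.3 (quasi-likelihood F test on raw counts, TMM, filterByExpr, genotype only, Benjamini-Hochberg over 17757 genes, called under 0.05). SE is the log2 change divided by the square root of F. CPM values in the text are counts scaled by TMM in this fit. Alternatives were DESeq2 1.42.0 (without independent filtering) and limma-voom (limma 3.58.1) on the same genes, limma-trend on log2(CPM + 0.5) from the deposited values, other scalings and filters, a replicate block, a sex term from Xist and Ddx3y, and leaving out each library. Fits on the recovered reads were added after seeing the data, as were the alternatives for related genes. The scripts were tested on simulated data. Exon lengths, positions and coding sequences came from GENCODE M21 (GRCm38).

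Named members were those called by edgeR or DESeq2, those at an unadjusted p under 0.05, the 3 highest per length in each family, and Adam8, Adam10, Adam17, Adamts1, Adamts2, Adamts4, Adamts5 and Adamts13. Of related lists, the 3 genes with the smallest p were named. Other genes were chosen after their values were seen. The members, lists and rules were chosen with earlier results of these data known. The motif search first required glycine as the eighth codon and no aspartate (21 members, 68 genes in all); it was changed after seeing that result.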

Additional observations from a re-analysis of the deposited data

How the results depend on the processing

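No member was called by edgeR (0 of 29), and the count was 0 in all alternatives except DESeq2 (4), no low-count filter (3), an adjusted p under 0.10 (3) and leaving out single libraries (0 to 2), where 2 passed without Plg WT 1, Adam28 and Adam9. Over all genes tested, 42 were called. There were 402 with DESeq2, 162 with no low-count filter, 121 at an adjusted p under 0.10, 65 with a sex term, and 2 to 219 with single libraries left out (219 without Plg WT 1, 2 without Plg WT 2, 3 each without Plg WT 3, Plg KO 2 or Plg KO 3). For related genes the count of 0 became 6 with DESeq2, 3 with no low-count filter, 2 at an adjusted p under 0.10, 1 with a sex term and 0 to 3 with single libraries left out. The cause of these changes was not tested.

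Replicate numbers were not used as pairs in the main fit. Deviations of same-numbered libraries from their group means correlated at -0.32, -0.04 and -0.29, and those of differently numbered libraries at -0.15 to 0.36. With so few libraries these correlations are tied to each other, so they cannot show whether the numbers mark a pairing. With a replicate block 2 genes, 0 members and 0 related genes were called.

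Members at an unadjusted p under 0.05 numbered 6, and 5 to 10 with single libraries left out (10 without Plg WT 1). The adjusted p of Adam8 ran over the alternatives from 0.000121 to 0.397, that of Adam12 from 0.000984 to 0.482, that of Adamts4 from 7.71e-06 to 0.392 and that of Adam22 from 0.0142 to 0.576. With single libraries left out, the median log2 difference ran from 0.017 to 0.25 for ADAM and from -0.076 (without Plg WT 3) to 0.23 for ADAMTS. The log2 differences of 9 of the 29 tested members changed sign with a single library left out, those of Adam1a, Adam4, Adamts6, Adamts8 and Adamts17 and 4 others. Of these 4, Adamts1 ran from -0.065 to 0.14 (negative without Plg WT 3 or Plg KO 2), Adamts5 from -0.66 to 0.077, Adamts10 from -0.20 to 0.087 and Adamts13 from -0.15 to 1.51. Low counts limit Adam12, Adamts4, Adamts9 and Adamts13, and 4 members were too low to test.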

Other observations

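Adamts19 had 12 counts over the 6 libraries, of which 11 were in Plg KO 2. Adam32, which lies 0.807 kb from Adam9 on chromosome 8, was counted 16 times in Plg WT and 17 times in Plg KO, while Adam9 was counted 1314 and 1972 times.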
